A study of Mus musculus with 10 samples.

Results

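The genes described here are 10 that adipocytes transcribe strongly or that are used to mark them: Adipoq, Cfd, Retn, Lep, Plin1, Cidec, Lipe, Adrb3, Pck1 and Ucp1. They were found by their mouse Ensembl gene identifiers, matched to symbols in GENCODE release M21, and 10 of 10 had a single row among the 47333 genes of the deposited table. The rule that finds them uses no measured value, but the 10 genes and the gene lists used below were chosen with earlier results of these data known. The RNA came from 1 lobe of the lung, the right middle one, in 10 naïve mice that were 12 weeks old and on a C57BL/6J background, and it was sequenced to measure the effect of losing Bpifb1, a secreted airway protein. The labels give 5 mice as knockout (KO, 1 male and 4 females) and 5 as wild type (WT, 2 males and 3 females), kept in cages of mixed genotype. All 10 mice share the strain background, the age and the lack of treatment. The kind of Bpifb1 allele, the cells that lack it, and how the lobe was trimmed of neighbouring tissue are not given in the sources used here. Mice are named KO1 to KO5 and WT1 to WT5, where the numbers are names only.

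Each library held 21357424 to 28321294 estimated counts, and 24026 to 25135 genes had at least 1 count. The labels were checked on Bpifb1 itself, which stood at 0.614 ± 0.462 CPM in KO and 59.7 ± 23.6 CPM in WT (SD, n = 5 each; CPM is a gene's counts per 1000000 counts of its library). Xist, the RNA that coats the inactive X chromosome in female cells, stood at 274 to 407 CPM in 6 of the 7 mice labelled female and at 1.29 to 1.73 CPM in the 3 labelled male. KO5 is labelled female and had 1.78 CPM, against its label, so the sex differences of the members and the correlations in females alone are given with and without KO5. The label of KO5 also enters every fit and every residual that includes sex. WT4 had the lowest Adipoq of the 10 mice by a wide margin, and values without it are given where they differ.

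White adipocytes store triglyceride in 1 large droplet and release it as fatty acids when noradrenaline reaches their beta-adrenergic receptors. They also secrete hormones, the adipokines, among them adiponectin, adipsin, resistin and leptin. Brown adipocytes burn the released fatty acids in mitochondria through the uncoupling protein Ucp1. The factors PPARG and C/EBP alpha switch on much of this gene programme. Lung tissue proper holds few adipocytes, but fat lies around the hilum, the heart and the great vessels, and some genes that adipocytes use are active in other lung cells as well. In a whole piece of tissue, fewer adipocytes and less RNA per adipocyte cannot be told apart.

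The stretches upstream of 5 members are shown because they represent the patterns described further on: 3 genes whose levels moved together (Adipoq, Plin1, Cfd), an adipokine that was near its detection limit (Lep) and the brown fat gene (Ucp1). Sequences are from RefSeq on GRCm38.p6, from 250 bases before the annotated start, 5′ to 3′ on the gene's strand, without bases that lie inside the gene's GENCODE model. They are Adipoq chr16:23146286-23146535 (plus strand), Plin1 chr7:79732904-79733026 (minus), Cfd chr10:79890603-79890852 (plus), Lep chr6:29059971-29060219 (plus) and Ucp1 chr8:83290098-83290347 (plus). Capitals mark matches, on either strand, to TTGCNNAA, the C/EBP consensus, or to AGGTCA, a site bound by nuclear receptors.
Adipoq: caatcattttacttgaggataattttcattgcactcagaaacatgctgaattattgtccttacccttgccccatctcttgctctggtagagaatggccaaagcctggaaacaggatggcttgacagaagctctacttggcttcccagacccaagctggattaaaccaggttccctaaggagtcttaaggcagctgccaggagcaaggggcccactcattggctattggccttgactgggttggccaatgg
Plin1: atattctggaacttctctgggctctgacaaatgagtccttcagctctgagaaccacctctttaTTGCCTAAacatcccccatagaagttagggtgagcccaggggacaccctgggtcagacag
Cfd: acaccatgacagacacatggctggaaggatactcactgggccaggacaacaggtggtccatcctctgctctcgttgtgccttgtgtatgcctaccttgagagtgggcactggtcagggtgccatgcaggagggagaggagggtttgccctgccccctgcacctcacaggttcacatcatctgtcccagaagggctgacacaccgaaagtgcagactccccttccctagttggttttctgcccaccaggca
Lep: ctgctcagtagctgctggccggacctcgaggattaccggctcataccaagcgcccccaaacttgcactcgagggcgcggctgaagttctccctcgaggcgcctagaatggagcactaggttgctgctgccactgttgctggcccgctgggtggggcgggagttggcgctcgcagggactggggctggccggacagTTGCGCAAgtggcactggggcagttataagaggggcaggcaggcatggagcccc
Ucp1: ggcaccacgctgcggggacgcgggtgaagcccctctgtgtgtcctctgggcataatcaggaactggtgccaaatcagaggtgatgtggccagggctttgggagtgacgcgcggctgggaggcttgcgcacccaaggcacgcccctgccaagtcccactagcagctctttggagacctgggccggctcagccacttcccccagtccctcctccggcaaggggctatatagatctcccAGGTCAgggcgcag

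RefSeq had 11 upstream windows of 250 bases for 9 of the 10 members. TTGCNNAA occurred in 3 of the 11, those of Lep (55 bases before the start), Plin1 (187 and 58 bases before) and 1 of the 2 Cidec windows (198 bases before), against 9.56% of 32851 windows genome-wide. AGGTCA occurred in 1, that of Ucp1 (14 bases before the start), against 14.0%. The direct repeat bound by PPAR and RXR (DR1: AGGNCA, any base, AGGNCA), which an AGGTCA match can overlap, occurred in 0 of 11 against 0.338%, and TATAAA in 0 of 11 against 12.4%. Adipoq and Cfd had no match to any of these. A match or its absence describes letters in this window only.

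Adipoq, on chromosome 16 (GRCm38, 23146536 to 23158028), encodes adiponectin, a hormone made almost solely by adipocytes. Its level was 16.1, 10.7, 8.41, 9.85 and 20.8 CPM in KO1 to KO5 and 16.9, 7.10, 13.3, 2.87 and 23.2 CPM in WT1 to WT5. WT5, WT1, KO5 and KO1 were the high mice and WT4 the low one, and the extremes, 8.1-fold apart, were both WT. The KO values lay inside the WT range.

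Cfd, on chromosome 10 (79890853 to 79892655), encodes adipsin, the complement factor D that adipocytes secrete. It stood at 85.1, 66.9, 70.0, 60.1 and 160 CPM in KO1 to KO5 and at 142, 58.1, 65.7, 27.9 and 181 CPM in WT1 to WT5. KO5, WT1 and WT5 were well above the other 7 mice, and WT4 was lowest, as for Adipoq. Retn, on chromosome 8 (3655770 to 3660110), encodes resistin, an adipokine of white fat in mice. It ran at 5.59, 7.61, 5.44, 4.77 and 7.63 CPM in KO and at 12.0, 3.29, 3.70, 0.999 and 8.91 CPM in WT, a 12.0-fold range between WT4 and WT1. The 5 KO mice were within 4.77 to 7.63 CPM, while the WT mice lay on both sides of that band.

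Lep, on chromosome 6 (29060220 to 29073877), encodes leptin, the hormone that reports fat stores to the brain. It had 5 to 56 counts per library, or 2.21, 0.924, 0.232, 1.35 and 0.553 CPM in KO1 to KO5 and 1.45, 0.381, 0.482, 0.348 and 0.483 CPM in WT1 to WT5. KO1, WT1 and KO4 were the high mice. KO5 and WT5, the mice with the most Adipoq, had only 14 counts of Lep each.

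Plin1, on chromosome 7 (79720218 to 79732903), encodes perilipin 1, which coats the adipocyte lipid droplet and guards it from lipases. Its level was 26.7, 13.2, 10.8, 15.5 and 25.4 CPM in KO1 to KO5 and 22.2, 10.8, 15.6, 4.39 and 25.1 CPM in WT1 to WT5. The same 4 mice were high as for Adipoq, WT4 was again lowest, and the range was 6.08-fold. Cidec, on chromosome 6 (113424634 to 113435760), encodes a protein that fuses droplets into 1 large droplet. It stood at 36.4, 20.3, 19.7, 21.5 and 39.4 CPM in KO and at 31.3, 27.2, 31.9, 20.98 and 46.5 CPM in WT. Its range was narrower, 2.36-fold, and WT4 was level with KO2, KO3 and KO4 although its Adipoq was far lower.

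Lipe and Adrb3 belong to lipolysis. Lipe, on chromosome 7 (25379527 to 25398710), encodes hormone-sensitive lipase, and Adrb3, on chromosome 8 (27225776 to 27250616), the beta3-adrenergic receptor that starts lipolysis in fat. Lipe was at 84.4, 64.5, 58.5, 55.5 and 84.5 CPM in KO and at 68.6, 80.2, 90.4, 97.6 and 90.3 CPM in WT. WT4, the mouse with the least Adipoq, had the most Lipe of the 10. Adrb3 was nearly level, from 14.4 (KO2) through a median of 15.0 to 19.6 CPM (WT1). Lipe shares 918 exon bases with the antisense gene 4732471J01Rik, which had 95 to 179 counts per library, and Adrb3 shares 839 with the antisense gene Gm45470. Whether the counting used strand is not given in the sources used here, so reads of these pairs may not be separate.

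Pck1, on chromosome 2 (173153048 to 173159273), encodes the cytosolic phosphoenolpyruvate carboxykinase, which in fat supplies glycerol for re-esterifying fatty acids and in liver and kidney makes glucose. It stood at 35.0, 6.95, 5.76, 4.21 and 42.5 CPM in KO1 to KO5 and at 11.5, 17.2, 27.1, 3.61 and 27.0 CPM in WT1 to WT5. KO1 and KO5 were far above the other KO mice, and the 10 mice spanned 11.8-fold. Ucp1, on chromosome 8 (83290352 to 83298452), was all but absent, with 3, 1, 0, 0 and 10 counts in KO1 to KO5 and 5, 0, 0, 2 and 8 in WT1 to WT5. That made 29 counts over the 10 libraries, against 3224 for Adipoq. In the 4 mice at 0 the depth allows up to 0.121 to 0.143 CPM (3 counts per library, counting error only).

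**Figure D1:**
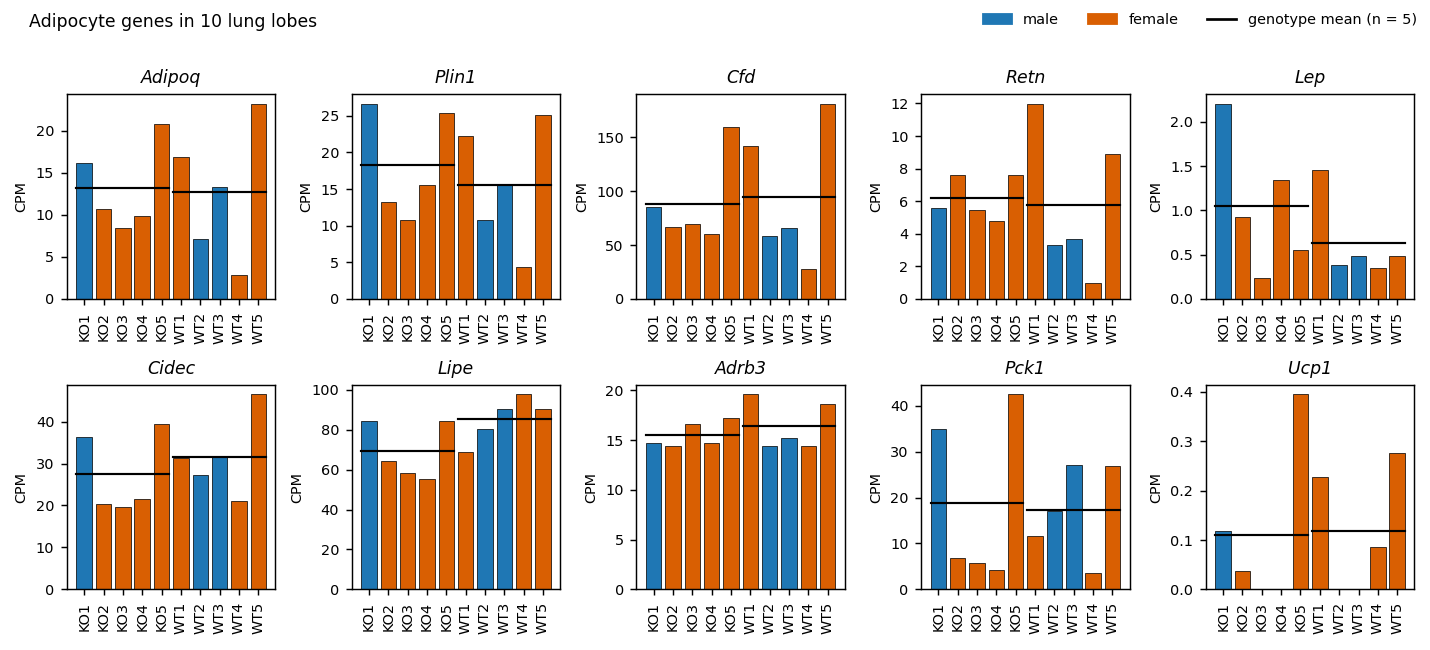
Level of each of the 10 genes in each mouse, in CPM on a linear axis from 0, with bars coloured by labelled sex (KO5 is labelled female) and a black line at the mean of the 5 mice of a genotype. Adipoq, Plin1, Cfd and Retn are all lowest in WT4, whereas Lipe is highest there and Adrb3 hardly differs between mice.

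Per 1000 bases of exon, which allows levels of different genes to be compared, Cfd was highest at 99.4 ± 55.0 CPM per kb (SD, n = 10 mice). Cidec (15.9 ± 4.97) and Lipe (13.2 ± 2.49) followed, then Adipoq (9.36 ± 4.603), Pck1 (5.27 ± 4.08), Adrb3 (4.74 ± 0.570), Retn (3.79 ± 1.99) and Plin1 (3.65 ± 1.62). Lep (0.251 ± 0.190) and Ucp1 (0.0697 ± 0.0857) were far below. The 7 genes from Cidec to Plin1 each overlapped within 1 SD with their neighbours in this order, as did Lep and Ucp1 with each other. By these SDs only Cfd above, and the pair Lep and Ucp1 below, were set apart from their neighbours by more than the spread between mice. The SDs are taken gene by gene and do not use that all genes were measured in the same mice. Within mice, Adipoq was above Pck1 in all 10. The values were 12.26 against 3.362 CPM per kb in WT1 and, at their closest, 5.141 against 5.003 CPM per kb in WT2.

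Spread between mice divided the members. The coefficient of variation (SD as a percent of the mean CPM) was 77.4% for Pck1, 75.9% for Lep, 55.4% for Cfd, 52.5% for Retn, 49.2% for Adipoq and 44.4% for Plin1. It was 31.3% for Cidec, 18.9% for Lipe and 12.0% for Adrb3. Among the 12877 genes with a mean of at least 5 CPM the median was 8.51%, and 0.311% had a value at or above that of Adipoq, while 21.9% reached that of Adrb3. Low counts add to the value of Lep, whose mean was 0.841 CPM.

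Which members moved together was measured as the correlation of log2 CPM (prior count 2) over the 10 mice, for Adipoq with the 9 others and for Ucp1 with the remaining 8, with permutation p-values adjusted by Benjamini-Hochberg over these 17 pairs. Plin1 followed Adipoq most closely, with Pearson r = 0.975 (adjusted p = 0.000595) and Spearman rho = 0.903 (adjusted p = 0.00621). For Cfd, r was 0.933 (adjusted p = 0.000595) and rho 0.915 (adjusted p = 0.00621). Without WT4 and WT5, the mice farthest from the median of Adipoq, r was still 0.936 for Plin1 and 0.845 for Cfd. Of all other tested genes, 0.316% reached an r of 0.9 with Adipoq and the median r was -0.022.

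Retn (r = 0.877, adjusted p = 0.0155, rho = 0.855), Cidec (r = 0.764, adjusted p = 0.0272, rho = 0.806) and Pck1 (r = 0.737, adjusted p = 0.0334, rho = 0.709) also passed by the permutation test. The rank correlation passed as well for Retn (adjusted p = 0.0149) and Cidec (adjusted p = 0.0289), but not for Pck1 (adjusted p = 0.0568). Without WT4 and WT5, r fell to 0.609 for Retn and 0.622 for Pck1 and was 0.778 for Cidec, so the relations of Retn and Pck1 rested in part on those mice. Without WT4 alone, neither Retn (r = 0.668, exact permutation adjusted p = 0.0886) nor Pck1 (r = 0.649, adjusted p = 0.0912) passed. Leaving out KO1, KO5 or WT5 left 3 pairs past the threshold, Plin1, Cfd and Retn with Adipoq, and Pck1 did not pass without KO2 or KO3 either.

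Adrb3 (r = 0.621, adjusted p = 0.0987, rho = 0.697), Lep (r = 0.412, adjusted p = 0.272, rho = 0.552) and Lipe (r = -0.021, adjusted p = 0.957, rho = 0.164) did not pass with Adipoq. On residuals after sex and genotype Adrb3 did pass (r = 0.850, permutation adjusted p = 0.00366, rho = 0.818). That test permuted the residuals as if no terms had been fitted, so its p-values tend to be too low. Without WT4 and WT5, r was 0.528 for Adrb3, 0.474 for Lep and 0.462 for Lipe. The value for Lipe turned on WT4 alone, without which r was 0.569 (exact permutation adjusted p = 0.137). By sex label, the 7 females alone, KO5 among them, gave r = 0.990 for Plin1, 0.973 for Cfd, 0.921 for Retn, 0.834 for Pck1, 0.772 for Cidec and -0.073 for Lipe. Cidec did not pass there (exact permutation adjusted p = 0.0800), and Plin1, Cfd, Retn and Pck1 did. In the 6 females other than KO5, Plin1 (r = 0.988) and Cfd (r = 0.969) passed (exact permutation adjusted p = 0.0472 for each), and Retn (r = 0.941, adjusted p = 0.0649) and Pck1 (r = 0.849, adjusted p = 0.118) did not. The 3 males were too few for a value of their own.

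**Figure D2:**
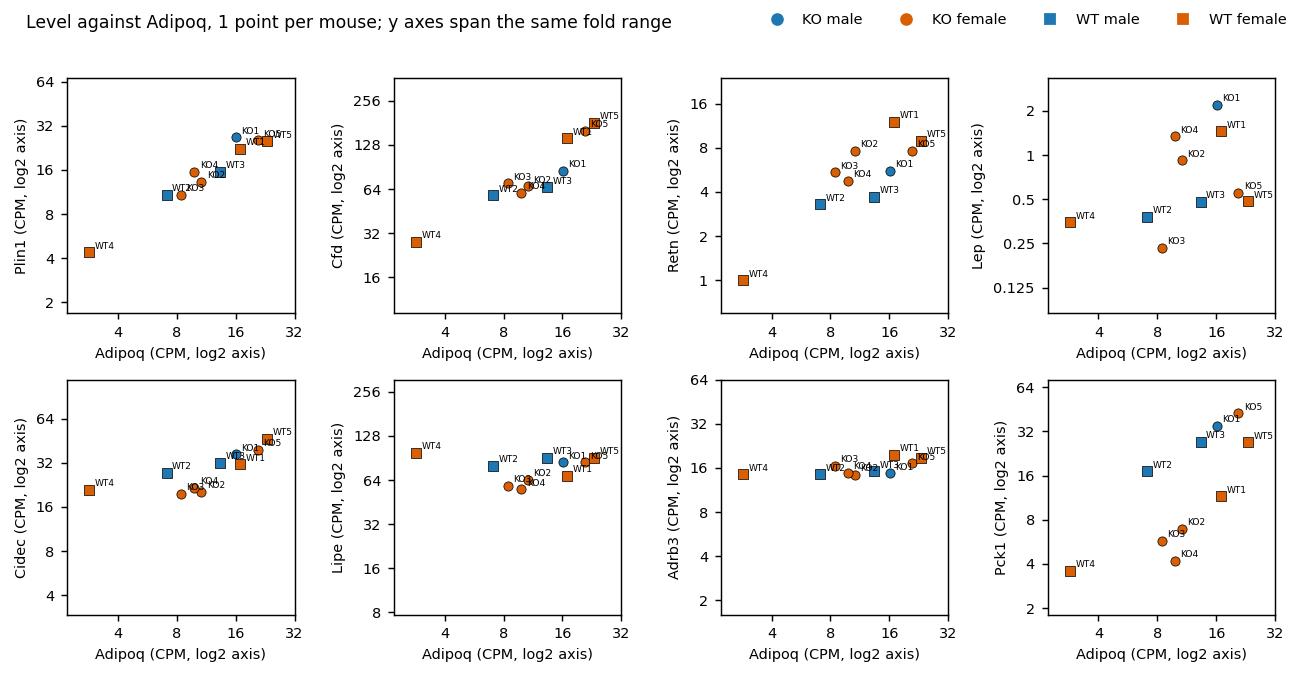
Level of 8 members against Adipoq, 1 point per mouse, both axes in CPM on a log2 scale and every y axis spanning the same fold range (circles KO, squares WT, blue male and orange female by label). Plin1 and Cfd climb with Adipoq across the whole range, Cidec, Lipe and Adrb3 in WT4 lie as high as or higher than in mice with several times more Adipoq, and Lep scatters.

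Ucp1 could be set against the white fat genes only on its 29 counts. It reached 3 counts or more in KO1, KO5, WT1 and WT5, which were the 4 mice with the highest Adipoq, and was at 0 in WT3, the next in that order. Its r with Adipoq was 0.537 (adjusted p = 0.176) and rho 0.738 (adjusted p = 0.0568), with r = 0.871 without WT4 and WT5. Leaving out WT4 alone, which had 2 counts, changed the call: r was then 0.895 (exact permutation adjusted p = 0.00956, n = 9 mice). With the other 8 members Ucp1 passed in no pair over the 10 mice, the highest r being 0.707 for Cidec (adjusted p = 0.0658) and 0.701 for Cfd (adjusted p = 0.0658). Without KO5 and WT5, the mice with the most Ucp1, these were 0.419 and 0.387. Without WT4, Ucp1 passed with Plin1 (r = 0.864), Cfd (0.957) and Retn (0.779) too, each by the exact permutation test with adjustment. As said above, permuted residuals tend to give p-values that are too low. On such residuals, after sex and genotype, Ucp1 passed with Cidec (r = 0.880), Pck1 (0.859) and Cfd (0.707, permutation adjusted p = 0.0397). In the 7 females alone it passed with Cidec (r = 0.90) and Pck1 (0.860), each at an exact permutation adjusted p of 0.0416. Without KO5 neither passed in the females (r = 0.873 and 0.779, exact permutation adjusted p = 0.0649 and 0.173).

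To set the members beside all other genes, the log2 CPM of Adipoq was added as a covariate to an edgeR quasi-likelihood fit with sex and genotype, a fit chosen after the correlations had been seen. A slope of 1 means that a gene changed by the same factor as Adipoq. Of 18023 genes, 0.399% (72) rose with Adipoq and 0.0166% (3) fell at a Benjamini-Hochberg adjusted p under 0.05, and 1017 (5.64%) had an unadjusted p under 0.05. Among the members 2 of 8 tested rose, Plin1 with a slope of 0.87 ± 0.06 (SE, adjusted p = 4.06e-05) and Cfd with 0.90 ± 0.08 (adjusted p = 0.00195). The median slope of the 8 was 0.67, against -0.003 for all genes. Without WT4 the gene count was 32, of which 24 rose and 8 fell and 19 were among the 75. There Cfd did not pass (slope 0.87, adjusted p = 0.137) and Cidec did (slope 0.68, adjusted p = 0.0165). Without WT5 it was 48, and Plin1 and Cfd passed. When mice were left out singly, Retn passed without WT1 and in no other of these fits.

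The remaining members did not pass this fit, with slopes of 1.27 ± 0.30 for Pck1 (adjusted p = 0.328), 0.89 ± 0.18 for Retn (adjusted p = 0.107), 0.43 ± 0.08 for Cidec (adjusted p = 0.0849) and 0.47 ± 0.38 for Lep. Adrb3 had 0.14 ± 0.04 and Lipe 0.02 ± 0.09. By DESeq2's Wald test 149 genes passed, 73 of them among the 75, and 5 members did: Plin1, Cfd, Retn, Cidec and Pck1. Without WT4 the slope of Retn was 0.51 and that of Lipe 0.32 (adjusted p = 0.131).

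Other genes of adipocyte pathways, in lists set up for this comparison, followed Adipoq in small numbers. Of genes of fatty acid and glucose uptake 2 of 7 rose, Fabp4 (slope 0.83, adjusted p = 0.000223), a fatty acid carrier, and Slc2a4 (slope 0.39, adjusted p = 0.00394), the insulin-responsive glucose transporter, which did not pass without WT4. The list's other members included Cd36 and Lpl, which ran at 734 to 959 and 125 to 196 CPM with slopes of -0.02 and 0.09. The highest r with Adipoq in this list was 0.948 for Fabp4 and the lowest -0.598 for Gpihbp1, the capillary anchor of lipoprotein lipase.

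Of 12 lipolysis genes 2 rose, Aqp7 (slope 1.40, adjusted p = 0.00457), the adipocyte glycerol channel, and Gpd1 (slope 0.23, adjusted p = 0.0267), which makes glycerol phosphate. Aqp7 had 1 to 29 counts per library and did not pass without WT4, and Gpd1 did not pass without KO4, KO5, WT2 or WT4. The lipase Pnpla2 (148 to 192 CPM, slope 0.03) was nearly level. The list's median slope was -0.006, and its r with Adipoq ran from 0.919 for Aqp7 to -0.457 for Npr1, a natriuretic peptide receptor.

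Among 8 other white fat genes, Car3, a carbonic anhydrase abundant in fat and in muscle, had a slope of 0.92 ± 0.04 (adjusted p = 1.99e-07), and the other 7 did not pass. Car3 was at 112, 67.0, 54.8, 66.4 and 142 CPM in KO1 to KO5 and at 110, 57.9, 86.9, 24.1 and 163 CPM in WT1 to WT5. Its order over the mice was close to that of Adipoq, and at r = 0.991 it was the gene most like Adipoq of all tested. The lowest r of this list was -0.579 for Mest, an imprinted gene linked to adipocyte size.

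In droplet storage genes 0 of 13 passed by edgeR (5 at an unadjusted p under 0.05), with a median slope of 0.05, and 2 passed by DESeq2 (Dgat2 and Plin4). There r with Adipoq ran from 0.834 for Fitm1 to -0.343 for Plin3, and Plin2, the perilipin of non-adipocytes, was at 107 to 143 CPM with a slope of -0.02. In fat synthesis 0 of 9 passed by edgeR, although 8 had an unadjusted p under 0.05 and the median slope was 0.20. By DESeq2 3 passed (Acaca, Pnpla3 and Thrsp). Without WT5 4 passed by edgeR (Acaca, Elovl6, Fasn and Thrsp), and without WT4 0 did and 2 had an unadjusted p under 0.05. Here r was highest for Pnpla3 (0.840) and lowest for Elovl6 (0.574). In adipogenic transcription factors 0 of 10 passed by edgeR (2 unadjusted) or by DESeq2, and r ran from 0.855 for Ebf2 to -0.543 for Rxra. Pparg was at 12.4 to 16.5 CPM (slope 0.03) and Cebpa at 201 to 261 CPM (slope 0.01). In adipokine receptors 0 of 4 passed by either tool (0 unadjusted by edgeR), and r ran from 0.330 for Cdh13, which binds adiponectin, to -0.210 for Lepr, the leptin receptor.

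The brown fat list held 20 genes, of which 16 were expressed enough to be tested and 2 rose with Adipoq: Cox8b (slope 0.43, adjusted p = 0.0118) and Cpt1b (slope 0.41, adjusted p = 0.0235). Both serve mitochondrial fuel use and are transcribed in heart muscle as well. Neither passed without WT4 or without WT5, and Cpt1b did not without WT2. Of the 16 tested, 8 had an unadjusted edgeR p under 0.05. Of genes more particular to brown fat, Cidea had 22 to 75 counts and a slope of 0.37 ± 0.14 (adjusted p = 0.677). Elovl3 and Zic1 had at most 1 count in any mouse, Lhx8 at most 4 and Otop1 at most 13 (r with Adipoq = 0.575). The list's median slope was 0.11, and its r with Adipoq ran from 0.862 for Dio2, the thyroid hormone activating deiodinase, to -0.392 for Elovl3.

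**Figure D3:**
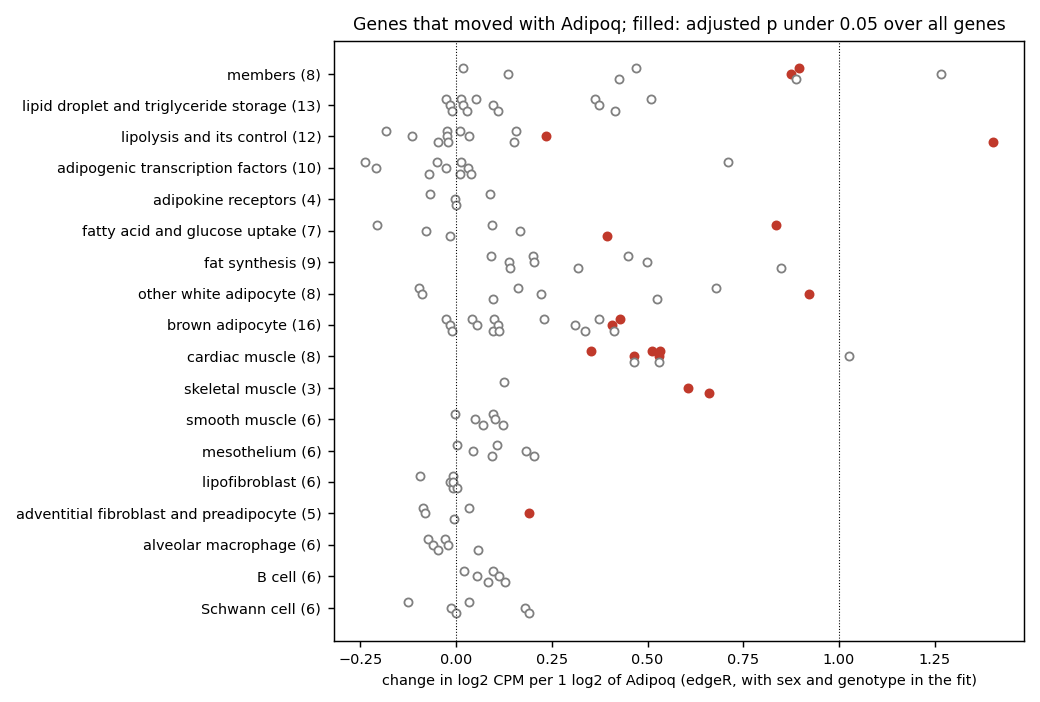
Slope of each tested gene on Adipoq (change in log2 CPM per 1 log2 of Adipoq, edgeR with sex and genotype), by list, with the number tested in brackets and red filled points for an adjusted p under 0.05 over all genes; vertical lines mark 0 and 1. Members run from 0.02 (Lipe) to 1.27 (Pck1), the cardiac muscle genes lie between 0.35 and 1.03, and lists of lung cell types lie around 0.

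Markers of heart muscle moved with Adipoq. Of 8 cardiac muscle markers 5 rose with Adipoq (Ryr2, Actc1, Myl4, Myl7 and Tnni3), the 8 slopes ran from 0.35 to 1.03, and their median was 0.52. Their summed level was 727 to 1260 CPM in KO and 460 to 1234 CPM in WT, lowest in WT4, and none was at 0 in any mouse. The mean log2 CPM of the list correlated with Adipoq at r = 0.957 (adjusted p = 0.00116 over 11 lists) and rho = 0.867 (adjusted p = 0.0120), and at r = 0.863 without WT4 and WT5. Within the list r was highest for Ryr2 (0.939) and lowest for Tnnt2 (0.880), the cardiac troponin T. By DESeq2 all 8 passed. Without WT4, 2 of the 8 passed the edgeR fit (Actc1 and Ryr2), and without WT2 or WT5 3 did. Which tissue in or beside the lobe these transcripts came from is not shown by the data. Its part in the covariation of the members was not tested.

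Of 6 skeletal muscle markers 3 were expressed enough to be tested and 2 rose, Ckm (slope 0.60, adjusted p = 0.000370) and Myl1 (slope 0.66, adjusted p = 0.0244), which did not pass without KO2, KO3, WT2 or WT4. Ckm, the muscle creatine kinase, is a heart gene too. The list's defining fast myosin Myh4 had at most 1 count in any mouse, and Acta1 at most 6. Within the list r ran from 0.968 for Ckm to -0.084 for Myh1, another fast myosin. The summed level was 16.6 to 27.6 CPM in KO and 9.99 to 30.01 CPM in WT. The 3 genes together gave r = 0.936 (adjusted p = 0.00116) and rho = 0.891 (adjusted p = 0.0120), and r = 0.825 without WT4 and WT5.

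The 9 other tissue lists with expressed genes did not pass with Adipoq over the 10 mice (adjusted p of 0.568 or more for r). Those were mesothelium (r = 0.332), thymus (0.375), Schwann cell (0.361), liver (0.345), smooth muscle (0.327), B cell (0.223), adventitial fibroblast and preadipocyte (0.105), lipofibroblast (-0.242) and alveolar macrophage (-0.246). In the 7 females alone the Schwann cell list passed (r = 0.893, exact permutation adjusted p = 0.0247), and without KO5 it did not (r = 0.921, exact permutation adjusted p = 0.0815). Pi16, a marker of adventitial fibroblasts, rose on its own (slope 0.19, adjusted p = 0.0181), but not without WT4 or WT5. Cartilage markers summed to 0.272 to 3.32 CPM, with their highest value in KO5, and the thymus gene Rag2 and the liver gene Fgb were at 0 in all mice.

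Within these lists r with Adipoq varied between genes. It was highest and lowest for Muc16 (0.509) and Upk1b (-0.143) in mesothelium, for Mag (0.664) and Prx (-0.570) in Schwann cells, and for Des (0.513) and Lmod1 (-0.141) in smooth muscle. In lipofibroblasts, the lipid-holding fibroblasts of the alveolar wall, it was 0.111 for Fgf10 and -0.625 for Tcf21, and in alveolar macrophages 0.171 for Marco and -0.371 for Siglecf. In adventitial fibroblasts it was 0.786 for Pi16 and -0.579 for Ly6a, and in B cells 0.323 for Cr2 and 0.093 for Ms4a1. In the sparse lists it was 0.587 for Cyp2e1 and -0.412 for Apoa1 (liver), 0.359 for Themis and -0.283 for Ptcra (thymus), and 0.481 for Matn1 and 0.079 for Comp (cartilage).

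After Car3, tested genes outside the members that were among the 10 most like Adipoq over the 10 mice were Ldb3 (r = 0.980), Gm13316 (0.975), Rbm20 (0.973), Ckm (0.968), Apobec2 (0.961), Trdn (0.961), Srl (0.959) and Hhatl (0.958). Ldb3 is a protein of the muscle sarcomere, Rbm20 is a splicing factor of heart muscle, and Trdn and Srl are proteins of the muscle calcium store. Among the 10 most like Ucp1, on its few counts, were Mbp (r = 0.926), F13a1 (0.902), Aldh5a1, Ppp1r1a, Coq8a, Ccdc121, Vdr, Ddo and Slc27a1 (0.870), and none of these was among the 10 most like Adipoq.

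Loss of Bpifb1 was not accompanied by a called change in these genes. In the edgeR fit with sex, 0.0222% of 18024 genes (4) differed between KO and WT at an adjusted p under 0.05, and 0 of the 9 members tested did. By unadjusted p under 0.05, 3057 genes (17%) and 0 members passed. By DESeq2's Wald test 346 genes passed and again 0 members. Adipoq was at 13.2 ± 5.16 CPM in KO and 12.7 ± 8.01 CPM in WT (SD, 5 mice each). The KO minus WT difference was 0.03 on the log2 scale, with a 95% interval of -1.24 to 1.30.

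The spread between mice set how much could be seen. For Plin1 the log2 fold change was 0.23 (interval -0.91 to 1.38), for Cfd -0.15 (-1.40 to 1.096), for Retn 0.03 (-1.21 to 1.27), for Lep 0.77 (-0.48 to 2.02, with values of 0.0436 without KO1 and 1.48 without WT1) and for Pck1 0.25 (-1.61 to 2.11). These intervals admit changes of 2-fold in at least 1 direction. The steadier genes were bounded more tightly, with Cidec at -0.19 (-0.88 to 0.51), Adrb3 at -0.12 (-0.31 to 0.08) and Lipe at -0.28 (-0.59 to 0.04). Lipe had the lowest adjusted p of the 9, 0.350 by edgeR, with KO at 69.5 ± 14.1 CPM and WT at 85.4 ± 11.3 CPM and overlapping groups. The sex label of KO5 is part of this fit too. Without KO5 the log2 fold change was -0.56 for Pck1 and -0.36 for Lipe (edgeR unadjusted p = 0.0155, adjusted p = 0.307 for Lipe).

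With Adipoq in the fit, so that mice were compared at equal Adipoq, 0 of the 8 other members passed, against 0.0277% of all genes. The intervals narrowed where a gene followed Adipoq: the standard error for Plin1 fell from 0.49 to 0.10 and that for Cfd from 0.53 to 0.14. Their log2 fold changes were then 0.17 (adjusted p = 0.400) and -0.24 (adjusted p = 0.397). Adrb3 had -0.15 (unadjusted p = 0.0492, adjusted p = 0.300).

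**Figure D4:**
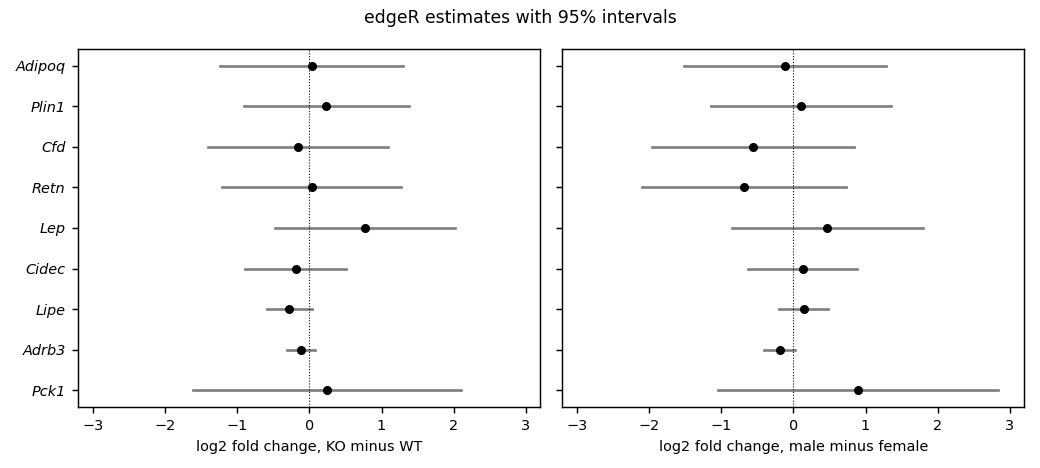
Log2 fold changes of the 9 tested members, KO minus WT (left) and male minus female (right), as points with 95% intervals from the edgeR fit with both terms; the dotted line is 0. All 18 intervals include 0, and those of Lipe and Adrb3 are the narrowest.

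Between the sexes as labelled, 0.583% of genes (105) differed in the same edgeR fit and 0 of the 9 members did, with or without KO5 (93 genes and 0 members without it). By unadjusted p under 0.05, 2727 genes (15.1%) and 0 members passed. Pck1 had the highest estimate, 0.89 ± 0.83 (SE) on the log2 scale in males over females (adjusted p = 0.669), and 1.46 ± 0.65 without KO5 (adjusted p = 0.374). Its level was 17.2 to 35.0 CPM in males and 3.61 to 42.5 CPM in females, or 3.61 to 27.0 CPM in the females other than KO5.

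Of the members divided by Adipoq, only Pck1 set the males apart from the females other than KO5. The ratio of the CPM values was 2.17, 2.42 and 2.03 in the males KO1, WT2 and WT3. In females it was 0.651, 0.685, 0.427 and 2.04 in KO2 to KO5 and 0.681, 1.26 and 1.16 in WT1, WT4 and WT5. KO5, the mouse whose Xist went against its label, lay with the males, and the other 6 females were at 0.427 to 1.26, below all 3 males. The ratio of geometric means was 2.52 for males over females and 2.90 without KO5. This ratio was looked at after its values had been seen. Between the sexes as labelled, an exact permutation test over 120 splits gave p = 0.0417 for the Pck1 ratio. It did not pass after adjustment over the ratios of the members (exact permutation adjusted p = 0.333). Without KO5 the exact permutation test over 84 splits gave p = 0.0119, which did not pass either (exact permutation adjusted p = 0.0952). In the edgeR fit with Adipoq as a covariate the sex difference of Pck1 was 1.19 ± 0.48 (unadjusted p = 0.0445, adjusted p = 0.311). There 0.849% of all genes and 0 of 8 members passed, and 2772 of 18023 genes had an unadjusted p under 0.05. Cfd (-0.41, unadjusted p = 0.0223, adjusted p = 0.245) and Adrb3 (-0.20, unadjusted p = 0.0239, adjusted p = 0.251) had lower p-values than Pck1 in that fit. Without KO5 the sex difference of Pck1 was 1.45 ± 0.24 (unadjusted p = 0.000444, adjusted p = 0.0524), where 150 genes and 0 of 8 members passed. Cfd, Retn and Adrb3 were then at -0.37, -0.64 and -0.19 with adjusted p of 0.271 or more.

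The ratios of other members to Adipoq overlapped between the sexes, and KO5 set no end of the ranges that follow. For Plin1 the ratio was 1.17 to 1.66 in males and 1.08 to 1.57 in females, and for Retn 0.277 to 0.463 and 0.349 to 0.713. For Cfd it was 4.93 to 8.18 and 6.11 to 9.74, and over all 10 mice it varied by only 1.98-fold while Cfd itself varied 6.49-fold. For Lipe, by contrast, the ratio ran from 3.89 in WT5 to 34.1 in WT4.

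**Figure D5:**
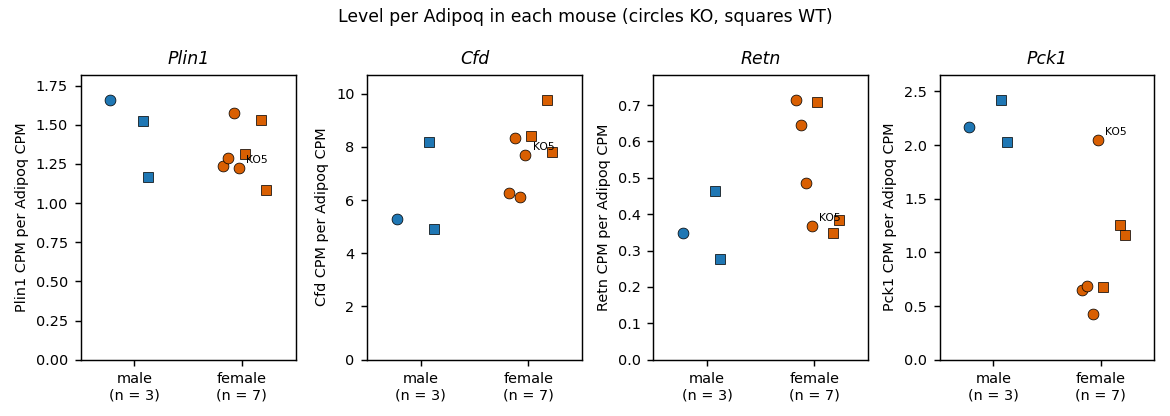
Ratio of the CPM of Plin1, Cfd, Retn and Pck1 to that of Adipoq in each mouse, by labelled sex, on linear axes from 0 (circles KO, squares WT; KO5 is marked). For Pck1 the 3 males lie at 2.03 to 2.42 with KO5 at 2.04 beside them, and the other 6 females lie at 0.427 to 1.26.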

How the data were processed

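The authors deposited 1 table of estimated counts per Ensembl gene, not scaled between libraries. The labels' protocols give a stranded mRNA kit and single-end reads of whole lung lobe RNA. Per the submitters' processing notes FastQC, MultiQC, STAR 2.6.0 and Salmon 0.9.1 were used, with the builds mm10 and GRCm38; their roles and the use of strand are not given in the sources used here. Of the non-zero values 30.1% were over 0.01 from a whole number, since reads shared by transcripts were divided, so genes with near copies are less certain.

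Counts were rounded. Of 47333 identifiers 47281 matched GENCODE M21. CPM used totals scaled by TMM, and log2 CPM a prior count of 2. edgeR 4.0.16 (R 4.3.3; robust quasi-likelihood test, filterByExpr with minimum count 10 and minimum total 15) was fitted on 18024 genes with genotype and sex, and tested on simulated data. P-values were adjusted by Benjamini-Hochberg over all tested genes, threshold 0.05. Intervals are 95%. Correlations used two-sided permutation tests with 100000 resamples (exact under 10 mice). Alternatives were DESeq2 1.42.0 (size factors or Wald test), no filter, no covariate, females alone, other prior counts, residuals, and each mouse left out. Females alone without KO5, and the fit with Adipoq without KO5, were added after the data had been seen.

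Per library, 3 counts equalled 0.104 to 0.143 CPM. The 10 members, all gene lists and the tests were chosen with earlier results of these data known. Genes named are the members, Bpifb1, the 10 genes with the highest r with Adipoq and with Ucp1, and in each list the called genes and those of highest and lowest r, apart from 2 genes that are not reported here. Other genes named, Xist, Cd36, Lpl, Pnpla2, Plin2, Pparg, Cebpa, Cidea, Zic1, Lhx8, Otop1, Myh4, Acta1, Rag2, Fgb, Dgat2, Plin4, Acaca, Fasn, Thrsp and 5 genes in the closing section, were chosen after their values were seen, as was the fit with Adipoq. 0 columns lacked a sample.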

Additional observations from a re-analysis of the deposited data

Results flagged for a closer look

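Single mice stood apart from the other 4 of their genotype in 2 of 40 sets examined (9 members and 11 tissue lists in each genotype, Dixon's test at 5 mice, critical value 0.71), and chance alone gives about 2 in 40. Cfd was 159.5 CPM in KO5, where the next KO mouse had 85.1 CPM and the lowest 60.1 CPM. KO5 was also the KO mouse with the most Adipoq, at 20.8 CPM, and its ratio of Cfd to Adipoq, 7.68, lay within the range of the other KO mice, 5.28 to 8.32. Lep was 1.452 CPM in WT1, or 32 counts, where the other WT mice had 0.348 to 0.483 CPM, or 8 to 14 counts. WT1 was second to WT5 in Adipoq among WT mice, and WT5 had 14 counts of Lep.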

How the results depend on the processing

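No paired analysis was possible because replicate numbers were given in accession order and only name the mice. Fold changes of the members passed in 0 of 293 alternative values, with a lowest adjusted p of 0.0524, and changed sign in 29. Of the comparisons over all genes, KO against WT called 50 genes with no filter and 346 by DESeq2, and 2 to 18 with a mouse left out (2 without KO2, KO4, KO5 or WT1, 18 without WT3). Male against female called 197 with no filter, 41 with no genotype covariate and 436 by DESeq2, and 0 to 195 with a mouse left out (0 without KO1, where 1919 had an unadjusted edgeR p under 0.05, 46 without KO2, 43 without WT2, 195 without WT4). Pairs of members past the threshold were 2 in females without KO5 and 3 to 7 with a mouse left out. With residuals after sex and genotype they were 9, by a permutation that ignored the fitted terms and so tends to pass too many. Genes rising or falling with Adipoq were 149 by DESeq2 and 32 to 101 with a mouse left out (32 without WT4, 48 without WT5). For females alone the KO minus WT log2 fold change was -0.21 for Adipoq, -0.0914 for Plin1 and -0.19 for Retn, and with Adipoq as a covariate -0.0435 for Pck1 (-0.46 without KO5). With a mouse left out it ran from -0.26 to 0.45 for Adipoq, -0.0909 to 0.55 for Plin1, -0.39 to 0.0731 for Cidec, -0.42 to 0.20 for Cfd, -0.30 to 0.44 for Retn, 0.0436 to 1.48 for Lep (0.0423 in females alone) and -0.56 to 0.86 for Pck1. Male minus female ran from -0.49 to 0.21 for Adipoq, -0.39 to 0.35 for Plin1, -0.16 to 0.34 for Cidec, -0.77 to 0.94 for Lep and -0.00316 to 0.23 for Lipe. The r of Adipoq with Lipe was 0.080 on residuals and -0.169 to 0.569 with a mouse left out, where the Lipe slope was -0.0325 to 0.32. The r with the adventitial list was -0.097 in females alone and -0.153 to 0.384 with a mouse left out, with the lipofibroblast list -0.420 to 0.058, and with the alveolar macrophage list -0.437 to 0.488. The cause of these shifts was not tested. By Pearson r the cardiac and skeletal muscle lists passed with Adipoq with each mouse left out (r from 0.892 to 0.976 and from 0.863 to 0.949). By rank correlation the cardiac list did not pass without KO3, WT2 or WT4, nor the skeletal list without WT4 (exact permutation adjusted p = 0.0592 for each). With Plin1 in place of Adipoq, 108 genes passed, 69 of them among the 75. Ucp1, at 29 counts over the 10 mice, was too low for the edgeR fits.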

Other observations

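Among the 72 genes that rose with Adipoq over the 10 mice (24 rose without WT4) were 2 secretory genes of the conducting airways, chosen here after their values were seen. Bpifa1, a relative of Bpifb1, had a slope of 1.06 ± 0.07 (SE, edgeR adjusted p = 9.52e-05) with genotype and sex in the fit. Its level was 151, 59.5, 48.5, 42.7 and 139 CPM in KO1 to KO5 and 178, 151, 289, 27.4 and 224 CPM in WT1 to WT5, and WT4, the mouse with the least Adipoq, was lowest again. Scgb3a1, a secretoglobin of the larger airways, had a slope of 0.46 ± 0.07 (adjusted p = 0.0349) and ran from 64.3 CPM in WT4 to 159 CPM in KO5. Of the 72, 9 were in the adipocyte and pathway lists, 7 in the cardiac and skeletal muscle lists, 1 in another tissue list and 55 in none.

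The 3 genes that fell with Adipoq were Gm7331, Hif3a and Sema7a. Hif3a, a hypoxia-inducible factor subunit, had a slope of -0.43 ± 0.08 (adjusted p = 0.0403), with 7.17 CPM in WT4 and 2.25 CPM in WT5. Sema7a, a membrane semaphorin, had a slope of -0.22 ± 0.04 (adjusted p = 0.0482), with 115 CPM in WT4 and 66.5 CPM in WT1, its lowest value.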
